A study of Mus musculus with 4 samples.

Results

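The Krüppel-like factors described here are *Klf2*, *Klf3*, *Klf4*, *Klf5*, *Klf6*, *Klf7*, *Klf9*, *Klf10*, *Klf13* and *Klf15*. They were taken by symbol from the count table, where all 10 were found among 36144 gene names. RNA was sequenced from mouse colonoids, which are cultures of colonic crypt epithelium grown as small hollow structures in Matrigel. Cultures were left untreated or given 2 mM sodium butyrate and were harvested at 48 h (day 2) or 72 h (day 3), which gave 4 conditions of 1 library each. The labels give the donor as a WT male mouse aged 24 weeks, whereas the study's methods name Hes1-GFP reporter mice, and this point entered no comparison. All 4 cultures shared a medium with EGF, Noggin, R-spondin, the Wnt-activating kinase inhibitor CHIR99021 and the ROCK inhibitor Y-27632, so that untreated refers to butyrate alone. The cultures came from crypts of the proximal colon of 1 mouse and were grown without stroma, vessels or immune cells, which limits them as a model. With 1 library per condition there was no replicate check and no p-value is given. A fit with the time as a block would have to take the difference between the times as error, and it was not run. Normalised counts are counts divided by a size factor for each library, log2 fold changes are on the scale of log2(normalised count + 1), and a fold of 1.5 was used as the threshold for counting genes. Intervals in square brackets are 95% exact intervals on the pair of counts, and they cover counting error only. For the difference between the changes at the 2 times they are a normal approximation from the 4 counts.

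Krüppel-like factors are transcription factors with C2H2 zinc fingers at the carboxyl end, which bind CACCC and other GC-rich elements that are also bound by the related Sp proteins. In the intestine, *Klf5* is known from dividing crypt cells, where it promotes proliferation, and *Klf4* from non-dividing cells nearer the lumen, where it slows the cell cycle and is needed for goblet cells. *Klf6* and *Klf10* respond quickly to growth factors, injury and TGF-β. *Klf9* and *Klf13* belong with *Klf10* to the branch that recruits the Sin3A corepressor, *Klf9* and *Klf15* are induced by glucocorticoids, *Klf3* is a repressor that recruits CtBP proteins, *Klf7* is best known from neurons and *Klf2* from endothelium and resting T cells. Butyrate, a short-chain fatty acid made by bacteria from fibre, is a fuel for colonic epithelium, a ligand of cell surface receptors and an inhibitor of histone deacetylases.

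Family members can act on GC-rich elements in each other's promoters. The 250 bases before the RefSeq start site are shown for 3 members, *Klf4* as the goblet cell factor, *Klf6* as the member with the largest change in abundance among well-counted members, and *Klf9* as the member whose direction with butyrate differed most between the times. Capitals mark the GC box, GGGCGG or its reverse complement CCGCCC, and each sequence runs 5′ to 3′ on the strand of the gene (GRCm38.p6).
Klf4, chr4:55532476-55532725, minus strand: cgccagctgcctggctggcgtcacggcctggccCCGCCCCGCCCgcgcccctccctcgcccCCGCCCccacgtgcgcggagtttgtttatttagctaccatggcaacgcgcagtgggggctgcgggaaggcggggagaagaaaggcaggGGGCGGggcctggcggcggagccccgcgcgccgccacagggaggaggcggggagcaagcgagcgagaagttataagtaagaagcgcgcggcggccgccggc
Klf6, chr13:5861239-5861488, plus strand: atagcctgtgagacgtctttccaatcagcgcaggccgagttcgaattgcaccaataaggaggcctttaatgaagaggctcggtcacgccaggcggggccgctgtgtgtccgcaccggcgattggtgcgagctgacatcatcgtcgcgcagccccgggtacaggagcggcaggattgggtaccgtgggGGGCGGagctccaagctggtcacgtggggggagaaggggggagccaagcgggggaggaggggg
Klf9, chr19:23140976-23141225, plus strand: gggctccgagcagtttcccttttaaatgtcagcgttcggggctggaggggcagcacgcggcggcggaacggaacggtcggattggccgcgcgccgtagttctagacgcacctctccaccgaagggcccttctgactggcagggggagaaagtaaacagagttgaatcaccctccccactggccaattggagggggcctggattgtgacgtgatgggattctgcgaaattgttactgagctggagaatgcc
The *Klf4* window held 4 GC boxes, that of *Klf6* held 1 and that of *Klf9* held 0. The broader KLF element CCNCNCCC, or GGGNGNGG on the other strand, was matched 9 times for *Klf4*, 2 times for *Klf6* and 0 times for *Klf9*. Some letters were counted in both motifs, since a GC box followed by cytosines also spells the broader element. Of 32851 RefSeq promoters of the same length, 32.7% held a GC box and 45.9% held the broader element. Entries were matched for 8 of 10 members, and *Klf5* and *Klf10* were without one. The remaining windows held 6 GC boxes for *Klf3*, 3 for *Klf13*, 2 for *Klf2*, 1 for *Klf7* and 1 for *Klf15*. GC content was 74.0% for *Klf4*, 64.8% for *Klf6* and 59.6% for *Klf9*, against a median of 52.4% over all promoters. A match of letters is a description of the sequence and shows no binding.

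The library totals lay between 20790225 and 24207840 estimated counts, and 14.1% to 18.4% of counts came from mitochondrial genes. All 8 epithelial markers, among them *Epcam*, *Vil1* and *Cdx1*, were found in every library, with summed normalised counts of 119193 to 130983. Markers of endothelium, where *Klf2* is known, summed to 77.7 to 127 normalised counts over 6 genes, and those of fibroblasts and muscle to 24.8 to 34.5 over 9 genes. *Col3a1*, *Lum*, the macrophage marker *Adgre1* and the progesterone receptor *Pgr* were at 0 in all 4 libraries. Immune markers summed to 190 without and 1229 with butyrate at 48 h, and to 234 and 525 at 72 h. Most of this was *Cd68*, a lysosomal protein gene picked out after its values were seen, at 131 and 1188 and at 170 and 454 normalised counts, and the other 7 immune markers summed to 41.7 to 71.3 with no such order.

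Levels of different genes were compared per kb of exon, as normalised counts divided by the summed length of all annotated exons. *Klf5* was highest with a mean of 2097 normalised counts per kb (1651 to 2496 over the 4 libraries). *Klf4* followed with 1413 (1211 to 1838), *Klf6* with 1305 (672 to 2269) and *Klf3* with 660 (623 to 714). *Klf4* and *Klf6*, neighbours in this order, overlapped, the range of *Klf4* lying within the wider one of *Klf6*, and *Klf5* and *Klf4* overlapped between 1651 and 1838. *Klf10* had a mean of 268 (211 to 308), *Klf13* 193 (158 to 237), *Klf9* 165 (138 to 200) and *Klf7* 108 (65.5 to 136). Each of these neighbours overlapped with the next, with the exception of *Klf9* and *Klf7*, whose ranges nearly touched, from 138 upwards and from 136 downwards. *Klf2* and *Klf15* stood far below, with means of 5.96 (0 to 9.62) and 3.47 (1.47 to 5.03).

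**Figure D1:**
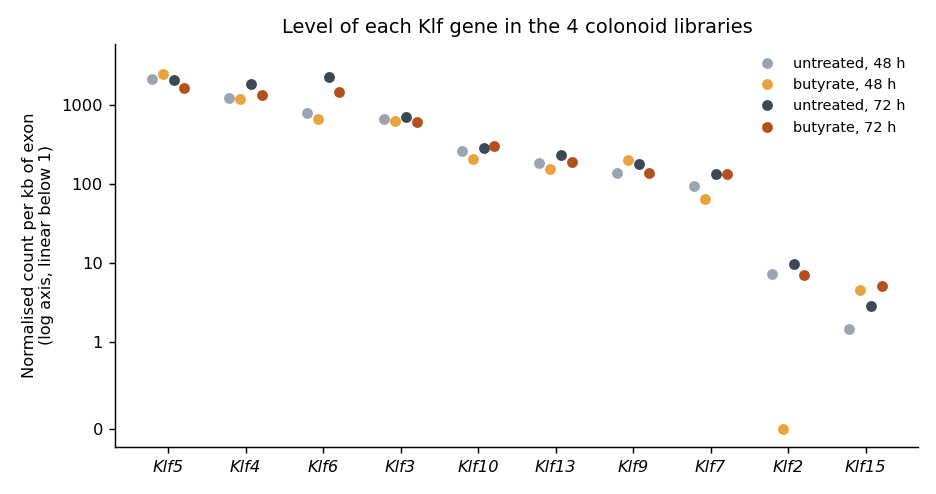
Normalised count per kb of exon (log axis, linear below 1) of the 10 Klf genes, ordered by mean, with 1 point for each of the 4 libraries. *Klf5*, *Klf4*, *Klf6* and *Klf3* lie at 623 or above in every library, *Klf2* and *Klf15* below 10, and *Klf2* is at 0 in the butyrate library at 48 h.

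*Klf5* made up 38.7% of the family's summed level per kb without and 44.2% with butyrate at 48 h, whereas at 72 h its share was 26.9% and 28.0%. *Klf6* was at 806 and 672 normalised counts per kb at 48 h and at 2269 and 1473 at 72 h, in the same order. It was therefore the most abundant member in the untreated library at 72 h, ahead of *Klf5*, and *Klf5* was the most abundant in the other 3. With the longest transcript as the length *Klf5* was highest in all 4, at 3239 against 2358 for *Klf6* in the untreated library at 72 h. The share of *Klf4* stayed between 21.4% and 23.7%. Over all 10 members, normalised counts summed to 30056 without and 30313 with butyrate at 48 h, and to 39459 and 30713 at 72 h. The untreated library at 72 h thus had the highest sum, and the other 3 differed little.

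*Klf5* (chr14:99298691-99315036, plus strand, GRCm38) and *Klf4* (chr4:55527143-55532466, minus strand) are the pair known for opposite roles along the crypt. *Klf5* was at 11206 normalised counts without and 12983 with butyrate at 48 h, and at 10857 and 8585 at 72 h. It was thus 15.9% higher with butyrate at 48 h, with a log2 fold change of 0.21 [0.18 to 0.25], and 20.9% lower at 72 h, with a log2 fold change of −0.34 [−0.38 to −0.30]. The untreated libraries lay between the 2 butyrate libraries. *Klf4* was at 3816 normalised counts without and 3692 with butyrate at 48 h, and the interval of its log2 fold change of −0.05 held 0 [−0.11 to 0.02]. At 72 h it was at 5603 and 4121 normalised counts, 26.4% lower with butyrate, with a log2 fold change of −0.44 [−0.50 to −0.38]. Its untreated library at 72 h was the highest of the 4, and the other 3 lay between 3692 and 4121.

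The ratio of *Klf4* to *Klf5* within 1 library does not depend on the scaling between libraries. Per kb, *Klf4* stood at 0.581 of *Klf5* without and 0.485 with butyrate at 48 h. At 72 h the ratio was 0.880 without and 0.819 with butyrate. On the log2 scale these ratios were −0.78 [−0.84 to −0.73], −1.04 [−1.09 to −0.99], −0.18 [−0.23 to −0.14] and −0.29 [−0.34 to −0.23]. *Klf4* was below *Klf5* in all 4 libraries, the ratio was lower with butyrate at both times, and it was higher at 72 h than at 48 h in both cultures. The intervals of the 4 libraries did not overlap, although both at 72 h nearly met. With the longest transcript as the length, which is much shorter for *Klf5*, all 4 log2 ratios were lower by the same amount. Their order could not change with the length.

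*Klf6* (chr13:5861482-5870394, plus strand) encodes a ubiquitous factor that is induced by injury and can activate the cell cycle inhibitor gene *Cdkn1a*. It was at 3540 normalised counts without and 2952 with butyrate at 48 h, and at 9965 and 6467 at 72 h. Both libraries at 72 h were above both at 48 h, and the butyrate library was the lower one at each time. With butyrate it was 16.6% lower at 48 h, with a log2 fold change of −0.26 [−0.33 to −0.19], and 35.1% lower at 72 h, with a log2 fold change of −0.62 [−0.67 to −0.58]. This was the only one of the 8 members with a mean of at least 50 normalised counts to pass 1.5-fold with butyrate. With total count scaling its log2 fold change at 72 h was −0.57, just short of 1.5-fold.

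*Klf10* (chr15:38291463-38300706, minus strand), also named TGF-β-inducible early gene, represses growth downstream of TGF-β. It was at 1089 normalised counts without and 881 with butyrate at 48 h, and at 1215 and 1288 at 72 h. The log2 fold change with butyrate was −0.31 [−0.43 to −0.18] at 48 h and 0.08 at 72 h, where the interval held 0 [−0.03 to 0.20]. *Klf7* (chr1:64029447-64122282, minus strand) was at 776 and 533 normalised counts at 48 h and 1106 and 1090 at 72 h. Its log2 fold change at 48 h was −0.54 [−0.70 to −0.39], 31.3% lower with butyrate, and −0.02 [−0.15 to 0.10] at 72 h. For both genes the butyrate library at 48 h was the lowest of the 4. Of the 31-base words in *Klf7* transcripts, 38.7% also occur in 2 other annotated genes that overlap its exons on the opposite strand, so that its count is uncertain. In each of the other 9 members such words made up at most 4.53%. The count table had no row for these 2 genes, and the strand setting of the counting was not given in the sources used here.

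*Klf9* (chr19:23141226-23168134, plus strand) is a target of glucocorticoid and thyroid hormone receptors. It was at 663 normalised counts without and 964 with butyrate at 48 h, and at 875 and 671 at 72 h. The butyrate library was thus the highest of the 4 at 48 h and close to the lowest at 72 h. Its log2 fold change at 48 h was 0.54 [0.40 to 0.68], 45.5% higher with butyrate, and −0.38 [−0.53 to −0.23] at 72 h, 23.3% lower. The change at 72 h minus the change at 48 h was −0.92 [−1.13 to −0.72] on the log2 scale, larger in size than that of any of the other 7 well-counted members. The same difference was −0.55 [−0.61 to −0.50] for *Klf5*, −0.40 [−0.48 to −0.31] for *Klf4* and −0.36 [−0.44 to −0.28] for *Klf6*, and it was −0.11 [−0.17 to −0.04] for *Klf3*. In these 5 genes the change at 72 h was thus the lower one. For *Klf7* and *Klf10* it was 0.52 [0.32 to 0.72] and 0.39 [0.22 to 0.56], in the other direction.

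*Klf13* (chr7:63886351-63938915, minus strand), known for the control of chemokine genes in T cells and of cardiac genes, was the well-counted member nearest to *Klf4* in pattern, as measured below. *Klf13* was at 1395 normalised counts without and 1187 with butyrate at 48 h, and at 1784 and 1458 at 72 h. The log2 fold changes of −0.23 [−0.34 to −0.12] and −0.29 [−0.39 to −0.19] differed by −0.06, and the interval of that difference held 0 [−0.21 to 0.09]. The changes of *Klf4* were unlike these, with −0.05 at 48 h and a difference of −0.40 [−0.48 to −0.31]. *Klf3* (chr5:64803388-64832901, plus strand) varied least, with 7554 and 7109 normalised counts at 48 h and 8027 and 7005 at 72 h. Its log2 fold changes were −0.09 [−0.13 to −0.04] and −0.20 [−0.24 to −0.15], so that butyrate was on the lower side at both times and by 12.7% at most. An antisense gene overlaps exons of *Klf3*, and reads of the pair could not be told apart without strand.

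**Figure D2:**
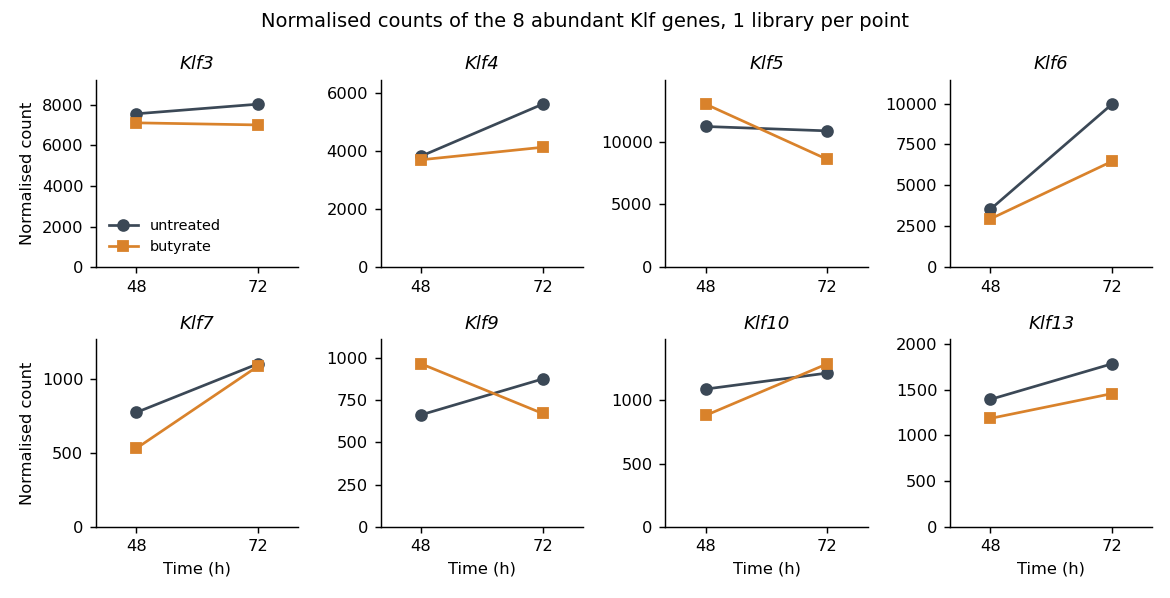
Normalised counts (linear axes from 0, a scale for each gene) of the 8 members with a mean of at least 50, by time, in untreated and butyrate-treated cultures, with 1 library per point and no error bars. The lines cross for *Klf5*, *Klf9* and *Klf10*, and for *Klf6* both lines end higher, at 9965 and 6467.

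*Klf15* (chr6:90462576-90475238, plus strand), a regulator of glucose, lipid and amino acid metabolism, was counted at 4 without and 14 with butyrate at 48 h and at 8 and 13 at 72 h. Both butyrate libraries were above both untreated libraries. The log2 fold changes were 1.43 and 0.76, past 1.5-fold at each time, yet both intervals held 0 [−0.04 to 3.70 and −0.55 to 2.31]. *Klf2* (chr8:72319033-72321656, plus strand) was counted at 13 without and 0 with butyrate at 48 h, and at 18 and 12 at 72 h. Measured against a floor of 3 counts per library, *Klf2* was 4.88-fold lower with butyrate at 48 h. This value leaves out counting error in the 13 counts. The interval on the pair of counts allowed a smaller change, with a log2 fold change of up to −1.78. At 72 h the log2 fold change was −0.43, with an interval that held 0 [−1.64 to 0.68]. Of the 6 endothelial markers, *Cdh5* and *Cldn5* were at 0 in 3 libraries each, and the others had counts in all 4. With butyrate at 48 h *Pecam1* and *Vwf* were higher, with log2 fold changes of 0.69 [−0.11 to 1.58] and 0.88 [0.35 to 1.45]. *Kdr* and *Tek* had at most 12 counts in any library. *Kdr* was lower with butyrate at 48 h, as *Klf2* was, at 8 and 1 counts, with a log2 fold change of −2.27 [−8.64 to −0.27]. *Tek* was higher, at 4 and 12 counts, with an interval that held 0. At 72 h *Pecam1* and *Kdr* were lower with butyrate, and *Vwf* and *Tek* were higher. The part of such cells in the level of *Klf2* was not tested.

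At 48 h, 7 of 10 members were lower with butyrate by any amount and 3 were higher. Of 13979 genes that passed the filter on low counts (above 10 in 2 or more libraries), 51.3% were lower. At 72 h, 8 of 10 members were lower, against 49.7% of all genes, and only *Klf10* and *Klf15* were higher. With total count scaling *Klf7* was also higher, at 0.03, and 7 members were lower. The median log2 fold change of the members was −0.16 at 48 h and −0.31 at 72 h, beside −0.01 and 0.00 for all genes. Past 1.5-fold, *Klf15* was higher and *Klf2* lower at 48 h, against 13.1% and 8.9% of all genes. At 72 h *Klf15* was higher and *Klf6* lower, against 9.5% and 8.53%. The counts past 1.5-fold were thus 1 of 10 in each direction at each time, near the background.

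**Figure D3:**
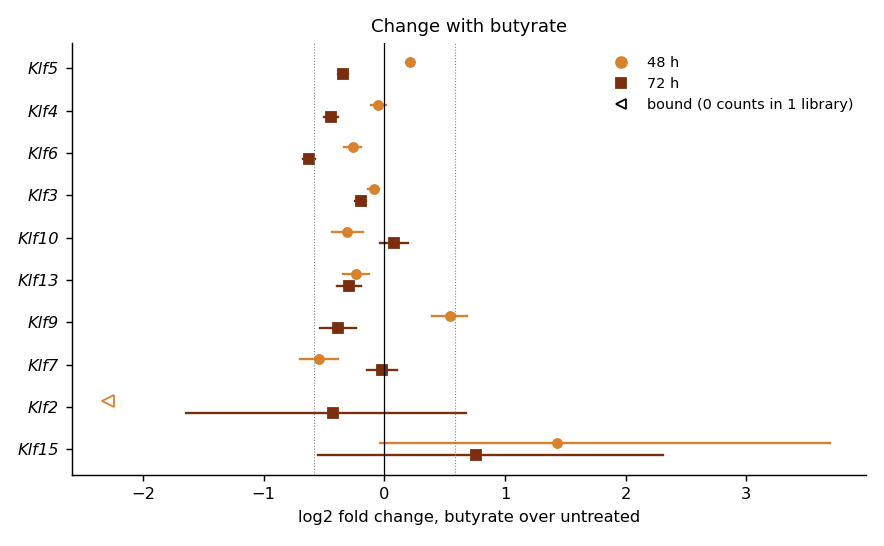
Log2 fold change of butyrate over untreated at 48 h and 72 h for the 10 members. Lines show 95% intervals from counting error, dotted lines mark 1.5-fold, and the open triangle sets *Klf2* against the floor of 3 counts. At 72 h the points of 8 members lie left of 0, and *Klf5* and *Klf9* lie right of 0 at 48 h and left of it at 72 h.

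Over the 11650 genes that also had a mean of at least 50 normalised counts, 8.94% were past 1.5-fold higher and 6.42% past 1.5-fold lower with butyrate at 48 h, and none of the 8 members was in either group. At 72 h the shares were 5.87% higher, again with no member, and 5.13% lower, with *Klf6*. *Klf7* at 48 h and *Klf9* at 48 h lay just inside the limit.

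The comparison of 72 h with 48 h uses the same libraries as that of butyrate with untreated, and the values are therefore set side by side only. In untreated cultures *Klf6* was 2.81-fold higher at 72 h, with a log2 fold change of 1.49 [1.44 to 1.55], and *Klf4* 1.47-fold higher, at 0.55 [0.49 to 0.61]. *Klf7* followed at 0.51 [0.38 to 0.65], *Klf9* at 0.40 [0.25 to 0.55] and *Klf13* at 0.36 [0.25 to 0.46]. *Klf5* differed little, at −0.05 [−0.08 to −0.01]. Of the genes with a mean of at least 50, 3.08% were past 1.5-fold higher in untreated cultures, with *Klf6* among them, and 3.31% lower, with no member.

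In butyrate-treated cultures *Klf6* was also higher at 72 h, with a log2 fold change of 1.13 [1.07 to 1.19], and so was *Klf7*, at 1.03 [0.88 to 1.18]. *Klf10* was at 0.55 [0.43 to 0.67], *Klf13* at 0.30 [0.19 to 0.41] and *Klf4* at 0.16 [0.09 to 0.22]. *Klf5* and *Klf9* were lower at 72 h, at −0.60 [−0.64 to −0.56] and −0.52 [−0.67 to −0.38]. Of the 8 members with a mean of at least 50, *Klf6* and *Klf7* were past 1.5-fold on the higher side, against 6.61% of genes, and *Klf5* on the lower side, against 8.45%. *Klf2*, at 0 counts at 48 h, was 4.76-fold higher at 72 h against the floor of 3 counts, without counting error. The interval on the pair of counts began lower, at a log2 fold change of 1.73. The median over the 10 members was 0.40 in untreated and 0.23 in butyrate-treated cultures, beside 0.00 and −0.01 over all genes.

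**Figure D4:**
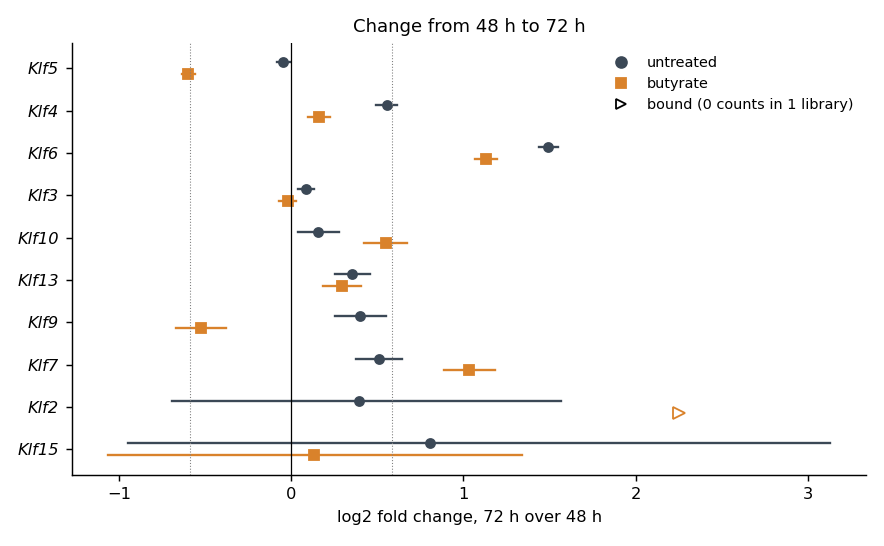
Log2 fold change of 72 h over 48 h in untreated and butyrate-treated cultures for the 10 members. Lines show 95% intervals from counting error, dotted lines mark 1.5-fold, and the open triangle sets *Klf2* against the floor of 3 counts. *Klf6* lies at 1.49 and 1.13, and *Klf5* and *Klf9* lie left of 0 in butyrate-treated cultures.

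Likeness of pattern was measured as the Euclidean distance between log2 values centred on each gene's own mean over the 4 libraries. Among the 8 well-counted members, *Klf4* and *Klf13* were nearest to each other, at a distance of 0.172. *Klf10* and *Klf13* were at 0.272, *Klf3* and *Klf13* at 0.317 and *Klf5* and *Klf9* at 0.350. Among 10772 genes with a mean of at least 100 normalised counts, those nearest to *Klf4* were *Ubald2* (0.0490), *Maml3* (0.0629) and *2200002D01Rik* (0.0879). *Ubald2* was at 825 normalised counts without and 771 with butyrate at 48 h, and at 1186 and 899 at 72 h. Those nearest to *Klf5* were *Mettl23* (0.0296), *Ift22* (0.0375) and *Acot11* (0.0482).

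Of the 7 other Klf genes, *Klf11*, *Klf12* and *Klf16* passed the count filter, and none passed 1.5-fold with butyrate at either time. *Klf11*, a TGF-β-inducible repressor related to *Klf10* and described for its values over time, was at 264 and 199 normalised counts at 48 h and at 828 and 890 at 72 h, in untreated and butyrate-treated cultures. Like *Klf6* it was therefore higher at 72 h in both, with log2 fold changes of 1.65 and 2.16. *Klf1*, *Klf8*, *Klf14* and *Klf17* had at most 7 counts in any library.

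Of the 9 Sp genes, which share the zinc finger type, 8 passed the filter, 2 of them higher and 6 lower with butyrate at 48 h and 6 higher and 2 lower at 72 h. The medians were −0.11 and 0.16. *Sp6*, known from tooth and skin epithelium, was at 6.14 and 39.9 normalised counts at 48 h and at 15.8 and 48.6 at 72 h, with log2 fold changes of 2.52 [1.47 to 4.22] and 1.56 [0.77 to 2.54]. *Sp9* was at 4.09 and 24.5 and at 3.95 and 20.5, with 2.32 [1.06 to 4.56] and 2.12 [0.79 to 4.39]. Both were higher in each butyrate library than in each untreated one. *Sp5*, a target of Wnt signalling, had log2 fold changes of −0.42 and 0.86, and *Sp8* of −0.02 and −1.02.

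Cofactors and ubiquitin ligases of the family were measured next. Of 8 such genes, 2 were higher and 6 lower with butyrate at 48 h, and 5 higher and 3 lower at 72 h, with medians of −0.12 and 0.00. The corepressor genes *Ctbp1* and *Sin3b* were lower at both times, with log2 fold changes of −0.54 and −0.11 for *Ctbp1* and of −0.48 and −0.20 for *Sin3b*. *Fhl3*, whose product binds *Klf3* protein, was at 0.90 and 0.06, and was the only one past 1.5-fold.

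Upstream of the family, ERK5 and MEF2 proteins are known to induce *Klf2* and *Klf4*. Of 4 genes of this pathway that passed the filter, 3 were lower with butyrate at each time, with medians of −0.35 and −0.09, and 1 passed 1.5-fold. This was *Mef2a*, at −0.59 at 48 h and −0.11 at 72 h, and *Mapk7*, which encodes ERK5, was at −0.48 and −0.07. Nuclear receptors and their hormone-induced genes, which bear on *Klf9*, *Klf13* and *Klf15*, had 2 of 7 higher at 48 h and 1 of 7 at 72 h, with medians of −0.12 and −0.23. The only one past 1.5-fold was *Fkbp5*, a glucocorticoid-induced gene named after its values were seen, at 0.77 at 48 h and −0.26 at 72 h. *Tsc22d3*, also induced by glucocorticoids and named for that comparison, was at −0.47 [−0.77 to −0.18] and −0.23. The thyroid hormone receptor genes went apart, *Thra* at 0.54 and 0.37 and *Thrb* at −0.39 and −0.43, and *Per1*, a clock gene that glucocorticoids also induce, was at −0.46 and −0.39.

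TGF-β pathway genes, which bear on *Klf10* and *Klf6*, were higher with butyrate in 5 of 9 at 48 h and 6 of 9 at 72 h, with medians of 0.03 and 0.18. Past 1.5-fold, 2 were higher and 1 lower at 48 h, and 1 higher and 1 lower at 72 h. The genes of the receptor chains went apart, with log2 fold changes of 0.43 and 0.39 for *Tgfbr2* and of −0.71 and −0.32 for *Tgfbr1*. The ligand gene *Tgfb2*, at 7 to 18 counts, was at 1.01 and 0.67, and both intervals held 0. The better counted ligand gene *Tgfb1*, named after its values were seen, was at 1.08 [0.82 to 1.36] and 0.18.

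Genes known to be activated by *Klf4* were higher with butyrate in 5 of 6 at 48 h, 3 of them past 1.5-fold, with a median of 0.76. At 72 h 2 of 6 were higher and 4 lower, with a median of −0.34. *Krt4*, an epithelial keratin, was at 218 and 1037 normalised counts at 48 h and at 199 and 1217 at 72 h, with a log2 fold change of 2.25 and 2.60. *Muc2*, the goblet cell mucin, went the other way, with −0.49 and −0.87, and the cell cycle inhibitor *Cdkn1a* was at 0.96 and 0.19. Genes known to be repressed by *Klf4* were higher in 4 of 5 at both times, with medians of 0.19 and 0.25.

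Genes known to be activated by *Klf5* were higher in 5 of 7 at both times, with medians of 0.05 and 0.18. The cyclin gene *Ccnd1*, which is on both lists, was at 4655 and 8354 normalised counts at 48 h and at 4167 and 8870 at 72 h, with log2 fold changes of 0.84 and 1.09. *Myc* was at 1.36 and 0.48 and the growth factor gene *Pdgfa* at −0.39 and −0.18. *Ccne1*, from the repressed list of *Klf4*, was at 0.86 and 0.47. A link of these genes to the level of *Klf5* or *Klf4* was not tested. Of 5 metabolic genes linked to *Klf15*, 3 passed the filter, all 3 higher at 48 h and 1 higher at 72 h, with medians of 0.38 and −0.14, and *Bcat2*, which breaks down branched amino acids, was at 0.38 and 0.16.

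In RNA from whole cultures, fewer cells of a type and less RNA per cell cannot be told apart. Markers of colonocytes, of goblet cells and of stem cells also differed between the conditions. Of 8 colonocyte markers, 8 were higher with butyrate at 48 h (median 0.65) and 7 were lower at 72 h (median −0.29). *Klf5* and *Klf9* were likewise higher at 48 h and lower at 72 h. Of 8 goblet cell markers, 5 were lower at 48 h (median −0.18) and 7 at 72 h (median −0.83). *Klf4* was 1 of 8 members that were lower at 72 h as well. Of 5 stem cell markers, 4 were lower at 48 h (median −0.31) and all 5 higher at 72 h (median 0.62). *Klf5* and *Klf9* went opposite to these medians at both times. Of 7 cycling markers, 5 were higher at 48 h (median 0.06) and 7 at 72 h (median 0.32), when *Klf5* was lower. The part of these cell types in the changes of the members was not tested.

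Since *Klf2*, *Klf4*, *Klf6* and *Klf10* can be induced quickly by handling of cells, immediate early and heat shock genes were set beside them. Of 16 immediate early genes, 5 were higher and 11 lower with butyrate at 48 h (median −0.24), and 8 were higher and 8 lower at 72 h (median 0.01). Over time their medians were −0.06 in untreated and 0.42 in butyrate-treated cultures. Past 1.5-fold, 3 were higher and 5 lower at 72 h in untreated cultures, and 6 higher and 3 lower in butyrate-treated cultures. Some of them, such as *Atf3* (1.24 and 1.41) and *Dusp1* (1.26 and 1.11), were higher at 72 h in both cultures, as *Klf6* was. Others, such as *Btg2* (−1.29 and −1.26) and *Ier3* (−0.93 and −1.31), were lower at 72 h in both. These examples were picked out after their values were seen. *Ier3* had log2 fold changes with butyrate of 1.08 and 0.70, and *Egr2*, at 7 to 15 counts, of −1.15 and −0.59. *Fosb*, picked out after its values were seen, was at 1278 and 38.1 normalised counts at 48 h and at 76.0 and 637 at 72 h. The order of *Fosb* over the 4 libraries was not that of any member. Of 6 heat shock genes, 4 were higher at 48 h (median 0.17) and 2 at 72 h (median −0.04). The part of handling in the levels of the members was not tested.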

How the data were processed

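Bulk poly-A RNA-seq of 4 mouse colonoid cultures was analysed. The authors deposited estimated counts per gene, rounded to whole numbers, made by kallisto pseudoalignment (version 0.44.0 and GRCm38.p6 in the submitters' processing notes) and summed to genes with tximport. How such counts share reads between genes with common sequence affects *Klf7* most.

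A gene was kept where 2 or more libraries had above 10 counts (13979 of 36144), and size factors were computed with DESeq2 1.42.0 (R 4.3.3). Log2 fold changes were taken on normalised counts plus 1, with Clopper-Pearson intervals at 95%. Reads are not independent molecules, so the intervals and the floor (3 counts) describe counting error alone. No p-value was computed. Exon lengths came from the GENCODE annotation of GRCm38. TMM factors came from edgeR 4.0.16. The calculation was tested on simulated data.

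The members and gene lists were chosen with earlier results of these data known. Named genes were the members, other Klf and Sp genes past 1.5-fold, up to 3 genes per list with the largest change in 1 direction at both times, defining markers at 0, and the 3 nearest patterns to *Klf4* and *Klf5*. Outside this rule, endothelial markers besides *Vwf* were chosen with their values in view. Among the names, 26 read as dates and 2 were listed more than once, none of them members. Alternatives were other scalings, pseudocounts, filters, a fold of 2 and transcript lengths. One gene of the TGF-β list is not reported here and was left out of its counts.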

Additional observations from a re-analysis of the deposited data

Results flagged for a closer look

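*Klf5* and *Klf9* were higher with butyrate at 48 h and lower at 72 h. The change at 72 h minus the change at 48 h was −0.55 for *Klf5* and −0.92 for *Klf9* on the log2 scale. With 1 library per condition this difference between the times was not tested.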

How the results depend on the processing

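Of the members' changes, only that of *Klf7* with butyrate at 72 h changed sign, from −0.02 to 0.03 with total count scaling, within its interval, which left 7 members lower. Of 240 recomputed changes 233 moved by less than their counting interval, and 7 moved by more, each when libraries were scaled to their totals. The 7 were changes with butyrate at 72 h or from 48 h to 72 h in untreated cultures. With this scaling the all-gene medians of these comparisons were 0.05 and −0.08. *Klf6* with butyrate at 72 h was then at −0.57, so that 0 members were past 1.5-fold lower. With a mean of at least 50 normalised counts, 0 members were past 1.5-fold higher or lower at 48 h and 0 were higher at 72 h, since *Klf2* and *Klf15* leave the set. With a pseudocount of 5, 0 were past 1.5-fold higher at 72 h, and with a fold of 2, 0 were higher and 0 lower at 72 h. With the longest transcript as the length, the log2 ratio of *Klf4* to *Klf5* was −1.41 without and −1.67 with butyrate at 48 h, whereas at 72 h it was −0.81 and −0.91, and *Klf3* and *Klf6* exchanged places 3 and 4. Of 80 recomputed list medians, 78 stayed within their limits and 2 moved, to −0.12 for epithelium and −0.78 for goblet cells at 72 h, and the heat shock median at 72 h went from −0.04 to 0.01 with total count scaling. At 4 to 18 counts, the intervals of *Klf15* at both times and of *Klf2* at 72 h held 0, and a change was not detectable at this depth.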
